A study of Mus musculus with 15 samples.

Results

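The genes examined here encode the nuclear subunits and assembly factors of respiratory complex I, and were chosen as every mouse gene whose symbol begins with Nduf and whose transcript identifier on the array could be matched to RefSeq. The rule gave 46 genes on 54 probes, of 28041 genes and unnamed transcripts tested. Of the 46, 36 encode subunits (7 of the catalytic core and 29 accessory), 8 are assembly factors named Ndufaf, and the last pair are Ndufa4, which is now assigned to complex IV, and its paralogue Ndufa4l2. All 46 were well above background on all 15 arrays, so none had to be left out for low signal. The mitochondrially encoded core subunits and Ndufb1 had no probe named by the match and were not analysed here.

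Complex I takes electrons from NADH, passes them along a chain of iron-sulfur clusters to ubiquinone and pumps protons across the inner mitochondrial membrane. The catalytic core is made in part from nuclear and in part from mitochondrial genes, the accessory subunits surround and stabilise it, and assembly factors help put modules together without staying in the finished enzyme. In tumours the complex feeds oxidative ATP synthesis and aspartate supply, and its output depends on oxygen.

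The samples were whole dissected mammary tumours of female mice, and the labels of the treated and vehicle samples name the MMTV-PyMT strain, in which polyoma middle T antigen is driven in mammary epithelium by the MMTV promoter. Nintedanib, an oral inhibitor of the VEGF, FGF and PDGF receptor kinases, was given at 85 mg per kg per day (4 arrays), and B20-4.1.1, an antibody against VEGF called B20 below, at 5 mg per kg 2 times per week by the intraperitoneal route (4 arrays). Both drugs and the vehicle were started at 7 weeks of age. At the end of treatment 3 arrays came from vehicle-treated mice, and 4 arrays, called T0, came from tumours taken before any treatment. The age at the end of treatment and the age of the T0 mice are not given in the sources used here. T0 replicate 4 also carries a vehicle label and was kept in T0 by its title. The series title puts tumour mitochondrial metabolism under antiangiogenic drugs as its question. Whether each array stands for a mouse of its own is not stated in the labels. The p-values therefore set a difference between group means against the spread among these samples of a group, and that spread can be technical.

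Each value is a log2 level relative to the 75th percentile of the processed signals on its own array, so a level compares 1 gene between arrays and not 1 gene with another. Arrays had median raw signals of 55 to 102 with median local backgrounds of 19 to 26. The share of probes well above background was 84.2% on T0 replicate 3 and 53.5% to 68.1% on the other 14 arrays. All 10 luminal epithelial markers, Krt8 and Epcam among them, were well above background on all 15 arrays. The 11 arrays from the end of treatment lay on a slide of 8 and a slide of 3, each holding all 3 end groups, while T0 replicates 1 and 2 shared a slide of their own and replicates 3 and 4 another. For every comparison with T0, slide and group therefore cannot be told apart.

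The T0 arrays did not form a uniform group. Markers of brown fat (Ucp1, Cidea, Cox7a1, Elovl3 and Cpt1b) had mean log2 levels between -2.93 and -0.11 on the nintedanib arrays, between -2.22 and 0.40 on the B20 arrays, between -2.70 and -2.47 on the vehicle arrays and between -1.27 and 4.91 on the T0 arrays, where replicates 1 and 2 were highest. Ucp1, the uncoupling protein that defines brown fat, was well above background on 3 of 4 nintedanib arrays, 3 of 4 B20 arrays, 0 of 3 vehicle arrays and 4 of 4 T0 arrays, and Elovl3 only on 3 T0 arrays. The numbers of lower and of called members, the medians and the called members' differences from T0 are given below with all T0 arrays and without replicates 1 and 2.

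The members are first described as a group. On each array the level of every member was compared with its own mean over the 15 arrays. Averaged over the 36 subunits, this log2 deviation was -0.51, -0.42, 0.09 and -0.12 on the nintedanib arrays, 0.22, 0.48, -0.21 and -0.13 on the B20 arrays, -0.18, 0.02 and -0.19 on the vehicle arrays, and 0.61, 0.11, -0.11 and 0.36 on the T0 arrays. The nintedanib, B20 and vehicle ranges overlapped, and so did those of vehicle and T0. Over the 8 assembly factors the mean log2 deviation was -0.40, -0.22, 0.23 and -0.08 on the nintedanib arrays, 0.18, 0.49, -0.24 and -0.08 on the B20 arrays, -0.01, 0.10 and -0.18 on the vehicle arrays, and 0.07, -0.19, -0.08 and 0.41 on the T0 arrays. Subunits and assembly factors went the same way on nintedanib replicate 1, where all 46 members lay below their own mean, and on B20 replicate 2, where 43 of 46 lay above it, and lay apart on T0 replicates 1 and 2.

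**Figure D1:**
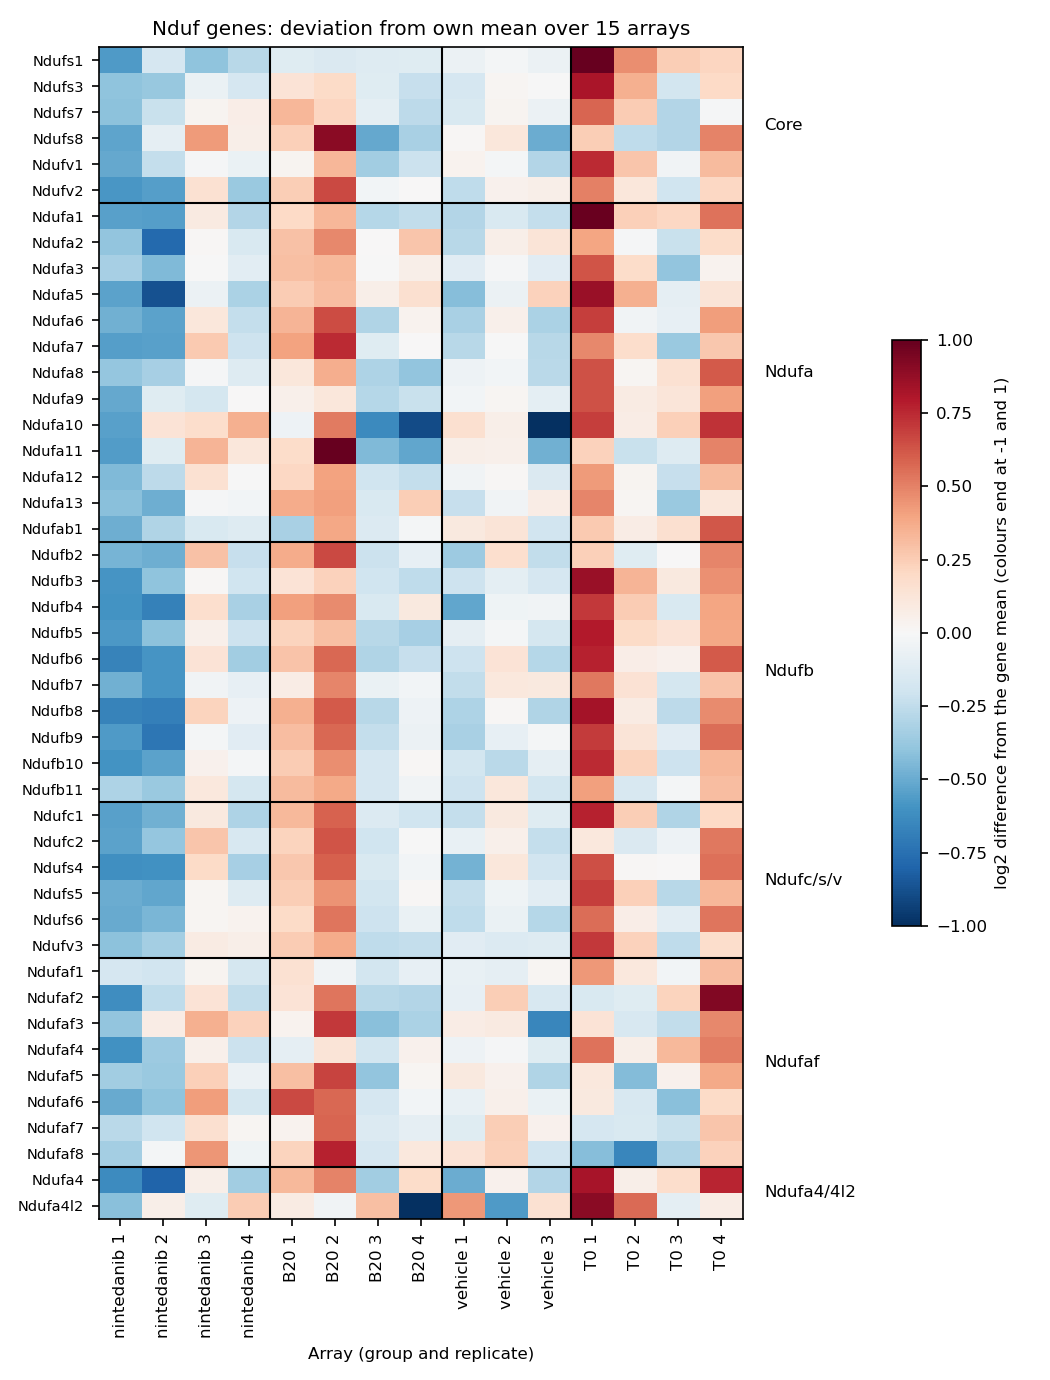
Each row is 1 of 45 Nduf genes, each column 1 array, and the colour is the log2 difference of the gene's level on that array from its own mean over 15 arrays (blue below, red above, colours ending at -1 and 1). Most cells are blue in nintedanib replicates 1 and 2 and red in B20 replicates 1 and 2, while T0 replicate 1 is red in the subunit rows and close to 0 in several Ndufaf rows.

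Of the 46 members, 24 had their lowest level on nintedanib replicate 1 and 15 on nintedanib replicate 2, while 30 had their highest on T0 replicate 1 and 12 on B20 replicate 2. The pooled SD of the subunit mean between arrays of 1 group was 0.28 log2, and that of the assembly factor mean 0.26. Single members had a pooled within-group SD of 0.14 to 0.57 log2 with a median of 0.30. The other nuclear subunits of complexes III and IV and of ATP synthase (33 genes tested) moved over the arrays in a similar range, from -0.44 on nintedanib replicate 1 to 0.52 on T0 replicate 1. Cytosolic ribosomal protein genes (82 genes) spanned -0.55 to 0.45 with the main scaling. With quantile normalisation their range shrank to -0.14 to 0.12. The subunits then spanned -0.32 to 0.60, where 0.60 was T0 replicate 1 and the next highest array, T0 replicate 2, stood at 0.15. The subunit mean of B20 replicate 2 moved from 0.48 to 0.14. With median scaling the extremes moved to other arrays, and the subunits spanned -0.93 on T0 replicate 3 to 0.84 on T0 replicate 4.

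**Figure D2:**
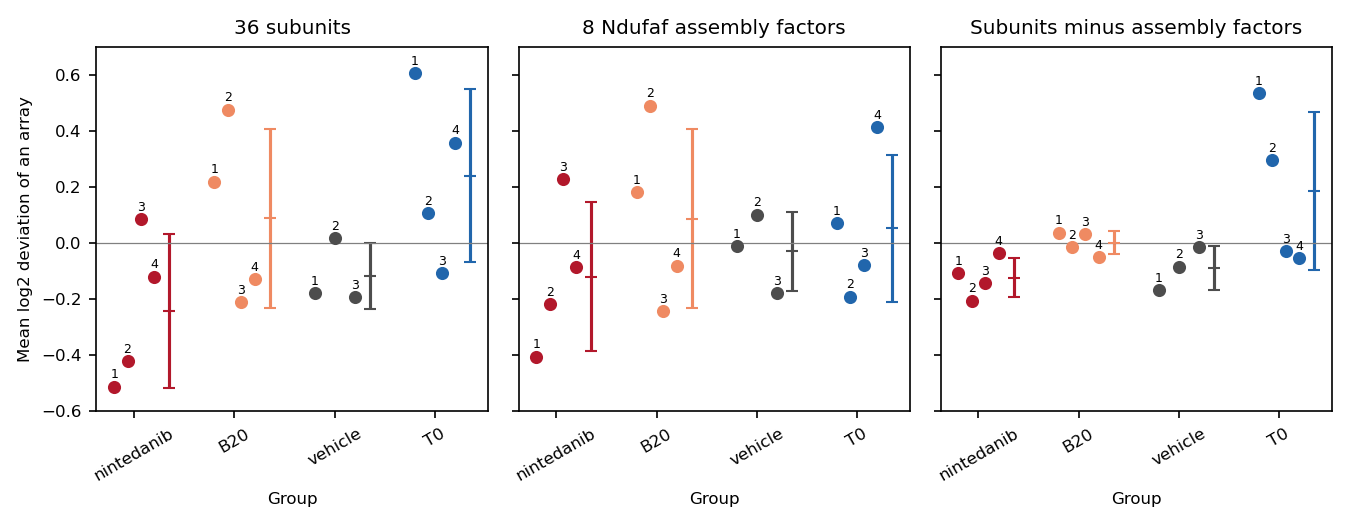
Points are single arrays, numbered by replicate; the y axis is the mean log2 deviation over the 36 subunits (left), the 8 Ndufaf assembly factors (middle) and the difference between both means (right); bars are the group mean ± SD. The difference is 0.54 on T0 replicate 1 and 0.30 on T0 replicate 2 and between -0.21 and 0.04 on the other 13 arrays.

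Nintedanib against vehicle asks whether the kinase inhibitor altered complex I transcripts at the end of treatment. With nintedanib, 41 of 46 members had the lower mean, against 51.2% of all genes tested, and the sizes were small. The median log2 difference was -0.12 over the subunits (32 of 36 lower) and -0.11 over the assembly factors (7 of 8 lower), against -0.01 over all genes. No member was called by limma at an adjusted p under 0.05, and 0% of all genes were called. At an unadjusted p under 0.05 there were 0 members as well, against 2.44% of all genes lower and 2.39% higher, and only Ndufs1 had groups that did not overlap (4.14% of all genes, lower). Within the slide of 8 all 46 members were lower with nintedanib (subunit median -0.19, assembly factors -0.16), and within the slide of 3, with 1 array a group, 22 of 46 were (0.01 and -0.05). With slide as a fixed block the medians were -0.13 and -0.11. The median over all 46 members was -0.12 (41 lower) with the main scaling and -0.07 (38 lower) with the authors' values. With quantile normalisation it was -0.08 (39 lower). The size moved with single arrays: the subunit median was -0.05 without nintedanib replicate 1, -0.06 without nintedanib replicate 2, -0.08 without vehicle replicate 2 and -0.25 without nintedanib replicate 3. Other lists lay to the same side of vehicle: 27 of 33 genes of complexes III and IV and ATP synthase were lower in the mean with nintedanib (median -0.15), as were 63 of 77 mitochondrial ribosomal protein genes (-0.13) and 77 of 82 cytosolic ones (-0.16), with 0 called. Adipocyte markers were higher in the mean in 12 of 12 genes (median 1.99), skeletal muscle markers in 14 of 15 (1.04) and hypoxia response genes in 13 of 14 (0.18), with 0 called, and their part in the result was not tested.

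The furthest subunits were Ndufa5, a peripheral arm subunit, at -0.36 ± 0.25 log2 (difference ± SE), Ndufs1 at -0.31 ± 0.20 and Ndufa2, a subunit with a thioredoxin-like fold, at -0.30 ± 0.21. Among those at the other end were Ndufa10, which has a nucleoside kinase-like fold, at 0.30 ± 0.37 and Ndufs8 at 0.09 ± 0.34, all with an adjusted p of 0.999 in limma. Ndufa2 had log2 levels of 6.44, 6.05, 6.85 and 6.68 on the nintedanib arrays, 7.12, 7.32, 6.83 and 7.11 on the B20 arrays, 6.55, 6.89 and 6.96 on the vehicle arrays, and 7.23, 6.82, 6.61 and 7.02 on the T0 arrays. Nintedanib replicate 2 was lowest and B20 replicate 2 highest, and the nintedanib arrays overlapped those of every other group. Ndufa10 had log2 levels of 2.31, 2.99, 3.03 and 3.22 on the nintedanib arrays, 2.81, 3.38, 2.22 and 1.97 on the B20 arrays, 3.02, 2.91 and 1.85 on the vehicle arrays, and 3.55, 2.93, 3.1 and 3.58 on the T0 arrays. Vehicle replicate 3 and B20 replicate 4 were the lowest, and every pair of groups overlapped.

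B20 against vehicle asks the same of VEGF blockade. Here 41 of 46 members had the higher mean, against 55.1% of all genes. The median log2 difference was 0.23 over the subunits (32 of 36 higher) and 0.10 over the assembly factors (8 of 8 higher), against 0.04 over all genes; with median scaling 4 of the 8 assembly factors turned lower. No member was called (limma, lowest adjusted p 0.998), as was 0% of all genes, and 0 members had an unadjusted p under 0.05, against 1.79% of all genes higher and 1.46% lower. Ndufa3, a membrane-anchored accessory subunit, was the single member above vehicle with no overlap (2.81% of all genes), and Ndufs1 the single one below (2.59%). Within the slide of 8, 40 of 46 members were higher with B20 (subunit median 0.24, assembly factors 0.07), and within the slide of 3, 26 of 46 were (0.09 and 0.10). With slide as a fixed block the medians were 0.22 and 0.09. Without B20 replicate 2 the subunit median was 0.11 and that of the assembly factors -0.01, with 5 of 8 lower. The median over all 46 members was 0.20 (5 lower) with the main scaling and 0.09 (11 lower) with the authors' values. With quantile normalisation it was 0.10 (11 lower). Other lists lay to the same side of vehicle: 28 of 33 genes of complexes III and IV and ATP synthase were higher in the mean with B20 (median 0.17), as were 59 of 77 mitochondrial ribosomal protein genes (0.12) and 80 of 82 cytosolic ones (0.27), with 0 called. Skeletal muscle markers were higher in 15 of 15 genes (median 2.19), adipocyte markers in 11 of 12 (2.08), hypoxia response genes in 12 of 14 (0.35), and endothelial markers lower in 9 of 10 (-0.42), with 0 called, and their part in the result was not tested. The 5 brown fat markers also had the higher mean (median 1.02), but Elovl3 was well above background on no B20 or vehicle array and Ucp1 on no vehicle array.

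Among the highest differences were those of Ndufa7, a peripheral arm subunit, at 0.45 ± 0.27 log2 and Ndufb4, a membrane arm subunit, at 0.41 ± 0.26. The lowest were Ndufs1 at -0.08 ± 0.20, Ndufa9, an NADPH-binding subunit of the peripheral arm, at -0.05 ± 0.18 and Ndufab1, the mitochondrial acyl carrier protein, at -0.04 ± 0.19. Ndufa7 had log2 levels of 5.57, 5.58, 6.39 and 5.92 on the nintedanib arrays, 6.53, 6.87, 6.0 and 6.13 on the B20 arrays, 5.84, 6.12 and 5.84 on the vehicle arrays, and 6.6, 6.3, 5.75 and 6.39 on the T0 arrays. B20 replicates 1 and 2 lay above the vehicle arrays, B20 replicate 4 lay at their upper edge and B20 replicate 3 among them. Ndufb4 had log2 levels of 5.99, 5.91, 6.76 and 6.26 on the nintedanib arrays, 6.99, 7.06, 6.43 and 6.69 on the B20 arrays, 6.06, 6.55 and 6.55 on the vehicle arrays, and 7.3, 6.84, 6.43 and 6.98 on the T0 arrays. B20 replicates 1, 2 and 4 lay above the vehicle arrays and B20 replicate 3 among them. Its second probe gave a log2 difference of 0.39 in the same comparison, against 0.41 for the probe used.

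**Figure D3:**
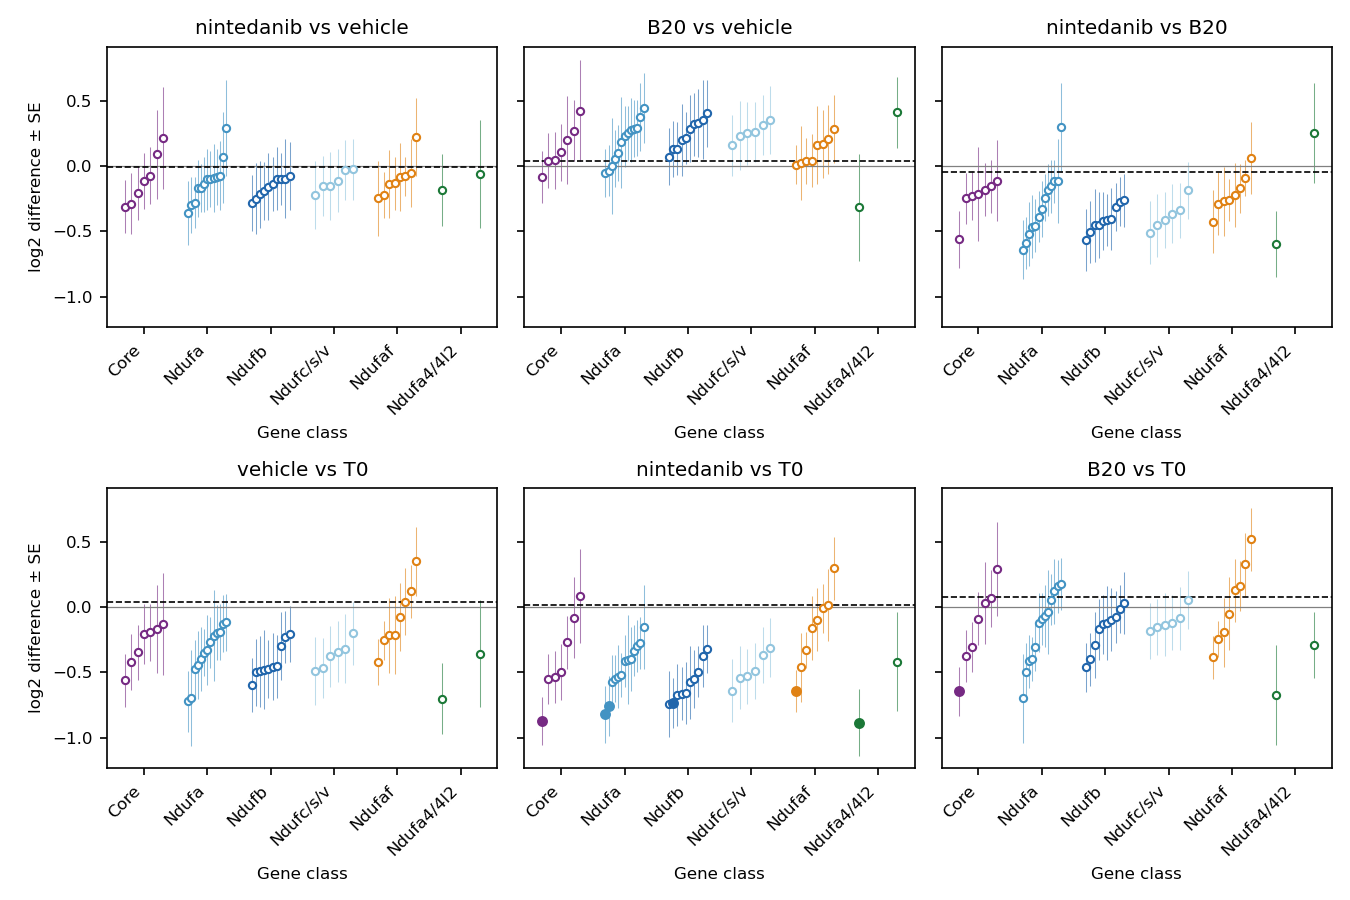
Each point is 1 Nduf gene, the y axis its log2 difference (first group minus second) with its SE from limma, and the x axis the gene class; filled points have an adjusted p under 0.05 and the dashed line is the median of all genes tested. Filled points appear only for nintedanib vs T0 (6 genes) and B20 vs T0 (1 gene), and most subunits lie below the dashed line in nintedanib vs B20 and in vehicle vs T0.

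Nintedanib against B20 sets both drugs side by side, and the members lay further apart here than for either drug against vehicle. With nintedanib 43 of 46 members had the lower mean, against 55.3% of all genes, with a median log2 difference of -0.35 over the subunits (35 of 36 lower) and -0.24 over the assembly factors (7 of 8), against -0.04 over all genes. None was called by limma (lowest adjusted p 0.517, 0% of all genes called), and 6 members had an unadjusted p under 0.05, all lower: Ndufa2, Ndufa4, Ndufa5, Ndufa13, Ndufb4 and Ndufv2. That is 6 of 46 members, against 5.48% of all genes. Other lists passed the same cut: 41 of 82 cytosolic ribosomal protein genes and 7 of 33 genes of complexes III and IV and ATP synthase, all lower. Of 77 mitochondrial ribosomal protein genes, 6 passed it lower and 1 higher. Groups did not overlap for Ndufa5 and Ndufs1 (3.61% of all genes, lower). Beside them, 82 of 82 cytosolic ribosomal protein genes were lower in the mean (median -0.42), as were 65 of 77 mitochondrial ones (-0.23) and 28 of 33 genes of complexes III and IV and ATP synthase (-0.26). The 15 skeletal muscle markers were all lower in the mean (-1.19), while 9 of 10 endothelial markers were higher (0.44), with 0 called, and their part in the result was not tested. The 5 brown fat markers had a median of -0.96, but Elovl3 was well above background on no nintedanib or B20 array and Ucp1 on 3 of 4 of each, so their signs are not counted here.

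The slides differed in the size of this difference. Within the slide of 8 all 46 members were lower with nintedanib and the subunit median was -0.45, but within the slide of 3, which holds nintedanib replicate 4 and B20 replicate 4, 28 of 46 were lower and the subunit median was -0.05. The nintedanib and B20 arrays also overlapped in the subunit mean: nintedanib replicates 3 and 4 stood at 0.09 and -0.12, and B20 replicates 3 and 4 at -0.21 and -0.13. The subunit median stayed between -0.46 and -0.23 when single arrays were left out, the smallest size without B20 replicate 2, and came to -0.14 with the authors' values and with normexp.

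Ndufa5 had the lowest difference, -0.64 ± 0.23 log2 with an adjusted p of 0.517 in limma and a 95% interval of -1.13 to -0.15. Ndufa5 had log2 levels of 5.68, 5.34, 6.16 and 5.9 on the nintedanib arrays, 6.47, 6.52, 6.28 and 6.38 on the B20 arrays, 5.79, 6.16 and 6.45 on the vehicle arrays, and 7.08, 6.57, 6.13 and 6.34 on the T0 arrays. All 4 nintedanib arrays were below all 4 B20 arrays, and vehicle and T0 arrays overlapped both. Its second probe differed by -0.38 log2. Ndufa2 differed by -0.59 ± 0.20 and Ndufb4 by -0.56 ± 0.24 (second probe -0.56). The highest were Ndufa10 at 0.30 ± 0.34, Ndufs8 at -0.11 ± 0.31 and Ndufa11, a membrane arm subunit, at -0.12 ± 0.32. Ndufa11 had log2 levels of 2.97, 3.41, 3.87 and 3.64 on the nintedanib arrays, 3.71, 4.54, 3.09 and 3.01 on the B20 arrays, 3.59, 3.58 and 3.05 on the vehicle arrays, and 3.76, 3.3, 3.4 and 4.02 on the T0 arrays. B20 replicate 2 stood highest, nintedanib replicate 1 lowest, and all groups overlapped.

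Vehicle against T0 follows the tumours without drug. All 36 subunits had the lower mean in vehicle-treated tumours, against 46% of all genes, with a median log2 difference of -0.35 against 0.04 over all genes. Of the assembly factors 5 of 8 were lower, with a median of -0.14, which turned to 0.04 without vehicle replicate 3 and to 0.03 without T0 replicate 4. No member was called by limma (lowest adjusted p 0.0910, for Ndufa1), while 4.92% of all genes were, with 2.12% of all genes lower. Of the members, 7 had an unadjusted p under 0.05, all lower, against 9.01% of all genes, and 8 had groups that did not overlap, all lower, against 6.96% of all genes: Ndufa1, Ndufa8, Ndufa9, Ndufb3, Ndufb5, Ndufs1, Ndufa4 and Ndufaf4. With median scaling no member had groups free of overlap. Without T0 replicates 1 and 2, 38 of 46 members and 32 of 36 subunits had the lower mean, against 43 of 46 and 36 of 36 with all T0 arrays, and the median was -0.26 over the subunits and -0.23 over the assembly factors, against -0.05 over all genes; no member was called. With array weights 3 members were called, Ndufb3 and Ndufs1 lower and Ndufaf8 higher. Of the 28041 genes tested, 3052 were called higher and 2222 lower with these weights.

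Ndufa1, a small membrane arm subunit needed for assembly, had a log2 difference of -0.72 ± 0.23, Ndufa10 of -0.70 ± 0.37 (adjusted p 0.300) and Ndufb3, also of the membrane arm, of -0.60 ± 0.20 (adjusted p 0.108). Among the smallest were those of Ndufa2 at -0.12 ± 0.21 and Ndufa13, the subunit first described as GRIM-19, at -0.13 ± 0.22. Ndufa13 had log2 levels of 7.3, 7.23, 7.71 and 7.69 on the nintedanib arrays, 8.09, 8.13, 7.57 and 7.97 on the B20 arrays, 7.49, 7.68 and 7.79 on the vehicle arrays, and 8.21, 7.73, 7.35 and 7.83 on the T0 arrays. All 4 groups overlapped. Subunits of the other complexes were lower in the mean as well: 33 of 33 genes of complexes III and IV and ATP synthase (median -0.30, 0 called) and 4 of 4 of complex II (median -0.62, 0 called).

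Nintedanib against T0 gave most of the calls. Of the 46 members, 6 fell (limma, adjusted p under 0.05) and none rose, against 11.4% of all genes called, with 4.62% of all genes lower. The 6 were the subunits Ndufs1, Ndufa1, Ndufb3 and Ndufa5, the assembly factor Ndufaf4 and Ndufa4. The median log2 difference was -0.52 over the subunits (35 of 36 lower) and -0.13 over the assembly factors (6 of 8 lower), against 0.01 over all genes, and 24 members had an unadjusted p under 0.05, all lower, against 12.2% of all genes. In all, 43 of 46 members had the lower mean, against 48.9% of all genes, and 8 members had groups that did not overlap, all lower, against 7.46%. The count of 6 became 1 without nintedanib replicate 1, without nintedanib replicate 2 or without T0 replicate 1, 3 without nintedanib replicate 4, and 12 without T0 replicate 3. It was 1 with slide as a random block, and 0 with median scaling or with the arrays of these 2 groups only. Without T0 replicates 1 and 2 no member was called, 43 of 46 members still had the lower mean, and the median was -0.38 over the subunits and -0.19 over the assembly factors, against -0.07 over all genes. The differences of the 6 were then -0.59 for Ndufs1 (adjusted p 0.0583), -0.70 for Ndufa1 (0.120), -0.57 for Ndufb3 (0.150), -0.46 for Ndufa5 (0.286), -0.70 for Ndufaf4 (0.0688) and -0.90 for Ndufa4 (0.114).

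B20 against T0 gave 1 call among the members. Ndufs1 fell, against 9.51% of all genes called, with 3.73% of all genes lower, and it was no longer called without any 1 of the 4 B20 replicates, without T0 replicate 1, without T0 replicate 2, or with slide as a random block. Without both T0 replicates 1 and 2 its difference was -0.36 (adjusted p 0.216). The median log2 difference was -0.12 over the subunits (27 of 36 lower) and 0.04 over the assembly factors (4 of 8 lower), against 0.08 over all genes. In all, 33 of 46 members had the lower mean, against 43.6% of all genes, 5 members had an unadjusted p under 0.05, all lower, against 10.1%, and Ndufs1 alone had groups that did not overlap, against 6.2%. Without T0 replicates 1 and 2, 26 of 46 members and 19 of 36 subunits had the lower mean, the median over all 46 was -0.04, against -0.12 with all T0 arrays, that over the assembly factors was -0.09, and no member was called. Without T0 replicate 1 alone, 21 of 46 members and 15 of 36 subunits were lower. The subunit median was 0.03 without T0 replicate 1, -0.02 without B20 replicate 3 and -0.26 without T0 replicate 3. The subunits furthest from T0 were Ndufa10 at -0.70 ± 0.34, Ndufs1 at -0.64 ± 0.19 and Ndufa1 at -0.49 ± 0.22, and among those above it were Ndufa2 at 0.18 ± 0.20 and Ndufa13 at 0.16 ± 0.20. The 3 comparisons with T0 share the same 4 T0 arrays, so their values are not independent of each other, and the comparisons among the end groups share arrays in the same way.

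Ndufs1 encodes the largest core subunit, which carries several of the iron-sulfur clusters that conduct electrons away from NADH. Ndufs1 had log2 levels of 3.88, 4.29, 4.05 and 4.18 on the nintedanib arrays, 4.33, 4.31, 4.33 and 4.34 on the B20 arrays, 4.4, 4.44 and 4.4 on the vehicle arrays, and 5.59, 4.92, 4.7 and 4.67 on the T0 arrays. With this scaling no 2 of the 4 groups overlapped: nintedanib was lowest, then B20, then vehicle, then T0. The gap between the highest nintedanib and the lowest B20 array was 0.02 log2, that between B20 and vehicle 0.06 and that between vehicle and T0 0.23. This separation rested on the scaling: with the authors' values and with median scaling all groups overlapped, and with quantile normalisation only B20 stayed apart from vehicle and from T0. Its mean was 4.10 ± 0.17 with nintedanib, 4.33 ± 0.01 with B20 and 4.41 ± 0.02 with vehicle, against 4.97 ± 0.43 in T0 (SD). It fell by 0.87 ± 0.19 log2 with nintedanib (adjusted p = 0.0120) and by 0.64 ± 0.19 with B20 (adjusted p = 0.0457) against T0 in limma, and the vehicle difference of -0.56 ± 0.20 had an adjusted p of 0.123. The nintedanib call held in 18 of 21 alternatives and the B20 call in 6 of 21.

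Ndufa1, Ndufb3 and Ndufa5 were the other subunits that fell with nintedanib against T0. Ndufa1 had log2 levels of 5.29, 5.28, 5.92 and 5.54 on the nintedanib arrays, 6.03, 6.17, 5.55 and 5.59 on the B20 arrays, 5.54, 5.68 and 5.6 on the vehicle arrays, and 6.83, 6.07, 6.04 and 6.38 on the T0 arrays. The lowest T0 array, 6.04, was above every nintedanib and vehicle array, while B20 replicate 2 at 6.17 reached into the T0 range. Ndufa1 fell by 0.82 ± 0.22 log2 (adjusted p = 0.0284, limma). Ndufb3 had log2 levels of 4.58, 4.77, 5.18 and 4.97 on the nintedanib arrays, 5.3, 5.39, 4.96 and 4.91 on the B20 arrays, 4.96, 5.07 and 5.0 on the vehicle arrays, and 6.03, 5.5, 5.27 and 5.62 on the T0 arrays. It too kept the nintedanib and vehicle arrays below all T0 arrays, and fell by 0.73 ± 0.19 (adjusted p = 0.0263). Ndufa5, whose arrays are given above, fell by 0.76 ± 0.23 (adjusted p = 0.0477), with nintedanib replicate 3 inside the T0 range. Its second probe differed by -0.59. These calls held in 12 (Ndufa1), 13 (Ndufb3) and 6 (Ndufa5) of 21 alternatives. Against T0, vehicle differed by -0.72 for Ndufa1, -0.60 for Ndufb3 and -0.40 for Ndufa5, with no member called. Nintedanib against vehicle had no member called either.

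The promoters of 40 of the 46 members were in the RefSeq table (GRCm38.p6), each as a window of 250 bases before to 50 after the start. Those of Ndufa2, Ndufa4l2, Ndufaf6, Ndufb9 and Ndufs1 were among those not in it. The bases before the start are shown for 3 genes that fell with nintedanib against T0, a subunit with a match, a subunit with none and the assembly factor, and the capitals mark matches to motifs of factors known to act on respiratory chain genes.
Ndufa1, chrX:37191239-37191488, minus strand: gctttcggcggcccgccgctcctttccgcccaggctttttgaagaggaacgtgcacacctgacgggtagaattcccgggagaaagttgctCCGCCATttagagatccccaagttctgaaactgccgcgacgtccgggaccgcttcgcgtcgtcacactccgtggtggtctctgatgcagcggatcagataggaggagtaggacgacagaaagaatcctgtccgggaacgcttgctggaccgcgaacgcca
Ndufb3, chr1:58586147-58586396, plus strand: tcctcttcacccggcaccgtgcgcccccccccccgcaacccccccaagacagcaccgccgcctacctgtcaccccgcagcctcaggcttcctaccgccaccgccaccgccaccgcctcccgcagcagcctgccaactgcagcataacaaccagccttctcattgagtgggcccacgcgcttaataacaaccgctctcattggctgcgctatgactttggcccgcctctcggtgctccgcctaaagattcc
Ndufaf4, chr4:24897833-24898082, plus strand: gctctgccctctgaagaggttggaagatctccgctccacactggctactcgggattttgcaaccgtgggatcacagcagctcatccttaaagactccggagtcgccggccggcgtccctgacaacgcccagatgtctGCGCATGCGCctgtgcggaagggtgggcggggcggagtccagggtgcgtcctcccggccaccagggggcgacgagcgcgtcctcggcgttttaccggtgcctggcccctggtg

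The capitals in Ndufa1 are a YY1 motif on the opposite strand, and those in Ndufaf4 are NRF1 motifs on both strands, which overlap each other. Both strands of the whole window were searched. The NRF1 motif GCATGCGC stood in 5 of 40 member promoters (12.5%) and in 3.05% of the promoters of 27025 genes, and the ETS motif CCGGAAG, bound by GABPA, in 6 of 40 (15%) and in 9.93%. The YY1 motif ATGGCGG stood in 10 of 40 (25%) and in 4.69%; these letters can also be the start of a coding sequence, and before the start site alone it stood in 4 of 40 (10%) and in 2.58%. Each match is a description of letters, not of a bound site. The members with an NRF1 match were Ndufa6, Ndufa8, Ndufa11, Ndufaf4 and Ndufaf5.

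**Figure D4:**
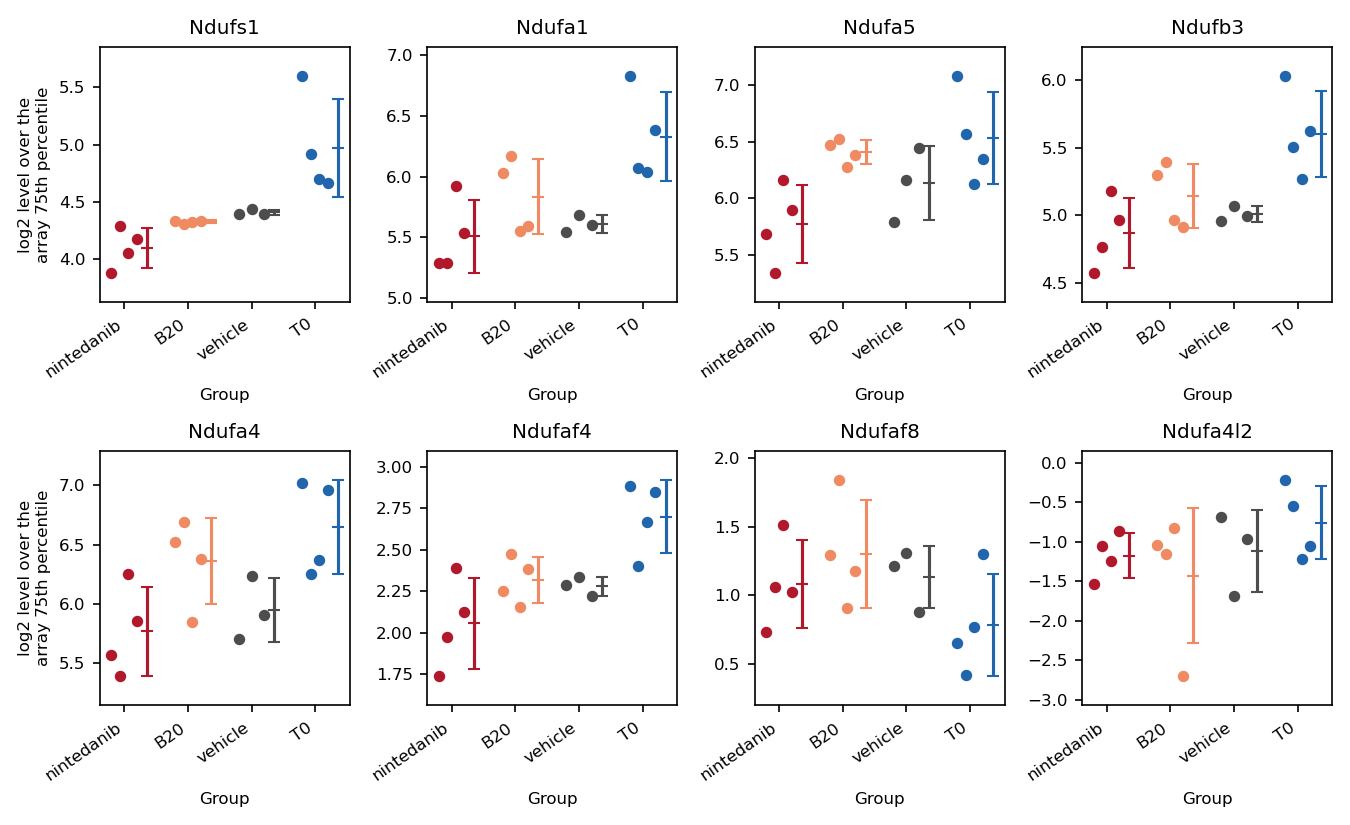
Each panel is 1 gene, points are single arrays in replicate order, the y axis is the log2 level over the array's 75th percentile on a scale of its own, and bars are the group mean ± SD. In Ndufs1, Ndufa1, Ndufb3 and Ndufaf4 all nintedanib and vehicle arrays lie below the T0 arrays, in Ndufaf8 the T0 group mean is the lowest, and in Ndufa4l2 B20 replicate 4 lies far below the rest.

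The core subunits Ndufs3, Ndufs7, Ndufs8, Ndufv1 and Ndufv2 were not called in any of the 6 comparisons. Ndufs7 carries an iron-sulfur cluster next to ubiquinone. Ndufs7 had log2 levels of 5.39, 5.58, 5.82 and 5.86 on the nintedanib arrays, 6.13, 6.01, 5.7 and 5.53 on the B20 arrays, 5.65, 5.83 and 5.74 on the vehicle arrays, and 6.38, 6.06, 5.5 and 5.79 on the T0 arrays. T0 replicate 1 was highest and nintedanib replicate 1 lowest, and the difference of nintedanib from T0 was -0.27 ± 0.20 log2.

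Ndufs3 and Ndufs8 belong to the module that hands electrons to ubiquinone. Ndufs3 had log2 levels of 5.09, 5.11, 5.43 and 5.32 on the nintedanib arrays, 5.62, 5.68, 5.37 and 5.26 on the B20 arrays, 5.33, 5.51 and 5.49 on the vehicle arrays, and 6.3, 5.85, 5.31 and 5.69 on the T0 arrays. T0 replicates 1 and 2 lay above every other array, while T0 replicate 3 lay inside the nintedanib and B20 ranges and just below the lowest vehicle array. Ndufs8 had log2 levels of 3.21, 3.65, 4.17 and 3.8 on the nintedanib arrays, 3.98, 4.64, 3.23 and 3.42 on the B20 arrays, 3.76, 3.86 and 3.24 on the vehicle arrays, and 3.98, 3.49, 3.44 and 4.24 on the T0 arrays. B20 replicate 2 was highest, and nintedanib replicate 1, B20 replicate 3 and vehicle replicate 3 were lowest.

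Ndufv1 binds the flavin cofactor and NADH, and Ndufv2 carries an iron-sulfur cluster beside it. Ndufv1 had log2 levels of 5.13, 5.4, 5.62 and 5.57 on the nintedanib arrays, 5.67, 5.97, 5.29 and 5.42 on the B20 arrays, 5.67, 5.62 and 5.34 on the vehicle arrays, and 6.38, 5.91, 5.6 and 5.95 on the T0 arrays. The nintedanib arrays differed from T0 by -0.53 ± 0.20 log2 (adjusted p = 0.0996, limma), with nintedanib replicate 3 just above T0 replicate 3. Ndufv2 had log2 levels of 4.99, 5.02, 5.72 and 5.2 on the nintedanib arrays, 5.82, 6.23, 5.54 and 5.58 on the B20 arrays, 5.31, 5.62 and 5.63 on the vehicle arrays, and 6.08, 5.68, 5.37 and 5.78 on the T0 arrays. Nintedanib replicate 3 was the single nintedanib array within the B20 range, and the difference of nintedanib from B20 was -0.56 ± 0.22, with an adjusted p of 0.523. Ndufa10, Ndufa11 and Ndufs8 were among the subunits with the widest spread, with pooled within-group SDs of 0.51, 0.47 and 0.46 log2.

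Of the 29 accessory subunits, 3 fell with nintedanib against T0, where 4.62% of all genes were called lower. None was called in the other comparisons. The 3 were no longer called without T0 replicates 1 and 2 or with median scaling. All 29 had the lower mean with nintedanib against T0, by 0.15 to 0.82 log2 in size, and all 29 with vehicle against T0. By family, the median difference of nintedanib from T0 was -0.62 over the 10 Ndufb genes, -0.51 over the 6 genes named Ndufc, Ndufs and Ndufv, and -0.41 over the 13 Ndufa genes, against -0.50 over the 7 core subunits. Ndufa9 and Ndufab1 illustrate members with no call. Ndufa9 had log2 levels of 3.58, 3.97, 3.92 and 4.1 on the nintedanib arrays, 4.14, 4.21, 3.81 and 3.87 on the B20 arrays, 4.07, 4.12 and 4.0 on the vehicle arrays, and 4.73, 4.18, 4.21 and 4.51 on the T0 arrays. All nintedanib and all vehicle arrays lay below all T0 arrays, with a nintedanib difference of -0.52 ± 0.17 (adjusted p = 0.0623, limma). Ndufab1 had log2 levels of 1.25, 1.43, 1.58 and 1.6 on the nintedanib arrays, 1.4, 2.12, 1.6 and 1.71 on the B20 arrays, 1.83, 1.86 and 1.54 on the vehicle arrays, and 1.99, 1.8, 1.9 and 2.36 on the T0 arrays. The nintedanib arrays were the single end group free of overlap with T0, at -0.55 ± 0.18 (adjusted p = 0.0656).

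Of the 8 assembly factors, Ndufaf4, which acts with Ndufaf3 on the module around ubiquinone, was the single one called. Ndufaf4 had log2 levels of 1.74, 1.97, 2.39 and 2.12 on the nintedanib arrays, 2.25, 2.47, 2.16 and 2.38 on the B20 arrays, 2.29, 2.33 and 2.22 on the vehicle arrays, and 2.88, 2.4, 2.66 and 2.85 on the T0 arrays. The lowest T0 array, 2.4, was just above nintedanib replicate 3 at 2.39 and above every vehicle array, while B20 replicate 2 exceeded it. Ndufaf4 fell by 0.64 ± 0.16 log2 with nintedanib against T0 (adjusted p = 0.0248, limma), a call held in 11 of 21 alternatives, and differed by -0.42 ± 0.18 with vehicle and -0.38 ± 0.16 with B20. Its second probe differed by -0.62, -0.62 and -0.44 in the same 3 comparisons.

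Ndufaf3, the partner of Ndufaf4, was not called. Ndufaf3 had log2 levels of 0.95, 1.42, 1.7 and 1.57 on the nintedanib arrays, 1.37, 2.05, 0.93 and 1.03 on the B20 arrays, 1.42, 1.44 and 0.69 on the vehicle arrays, and 1.48, 1.18, 1.1 and 1.82 on the T0 arrays. Vehicle replicate 3 was lowest and B20 replicate 2 highest, and nintedanib differed from T0 by 0.01 ± 0.28 log2. Ndufaf1, a chaperone of the membrane arm intermediate, was the steadiest member, with a pooled SD of 0.14 log2. Ndufaf1 had log2 levels of 1.26, 1.24, 1.46 and 1.25 on the nintedanib arrays, 1.58, 1.39, 1.25 and 1.34 on the B20 arrays, 1.35, 1.34 and 1.45 on the vehicle arrays, and 1.86, 1.53, 1.4 and 1.74 on the T0 arrays. T0 replicates 1 and 4 were highest, and the nintedanib difference from T0 was -0.33 ± 0.14 (adjusted p = 0.132). Ndufaf2, a late-acting paralogue of Ndufa12, was read highest on T0 replicate 4. Ndufaf2 had log2 levels of 1.95, 2.32, 2.71 and 2.33 on the nintedanib arrays, 2.7, 3.1, 2.29 and 2.27 on the B20 arrays, 2.49, 2.82 and 2.41 on the vehicle arrays, and 2.41, 2.45, 2.79 and 3.49 on the T0 arrays. All groups overlapped.

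Ndufaf5 and Ndufaf7 belong to the methyltransferase fold family and act on core subunits, and Ndufaf6 acts early in assembly. Ndufaf5 had log2 levels of -1.41, -1.44, -0.82 and -1.12 on the nintedanib arrays, -0.76, -0.39, -1.46 and -1.04 on the B20 arrays, -0.97, -1.01 and -1.36 on the vehicle arrays, and -0.96, -1.49, -1.02 and -0.68 on the T0 arrays. B20 replicate 2 was highest and T0 replicate 2 lowest. Ndufaf6 had log2 levels of 0.89, 0.99, 1.81 and 1.21 on the nintedanib arrays, 2.05, 1.97, 1.22 and 1.37 on the B20 arrays, 1.32, 1.45 and 1.33 on the vehicle arrays, and 1.49, 1.23, 0.98 and 1.59 on the T0 arrays. B20 replicates 1 and 2 were highest. Ndufaf7 had log2 levels of 2.54, 2.6, 2.96 and 2.82 on the nintedanib arrays, 2.84, 3.38, 2.66 and 2.71 on the B20 arrays, 2.69, 3.05 and 2.85 on the vehicle arrays, and 2.64, 2.65, 2.58 and 3.08 on the T0 arrays. None of the 3 had groups free of overlap, and their differences of nintedanib from T0 were -0.16 ± 0.24, -0.10 ± 0.24 and -0.01 ± 0.19 log2. Ndufaf8, a partner of Ndufaf5, had the higher mean in all 3 end groups against T0. Ndufaf8 had log2 levels of 0.73, 1.06, 1.51 and 1.03 on the nintedanib arrays, 1.3, 1.84, 0.9 and 1.18 on the B20 arrays, 1.21, 1.31 and 0.88 on the vehicle arrays, and 0.65, 0.42, 0.77 and 1.3 on the T0 arrays. T0 replicates 1, 2 and 3 were below all but 1 of the 11 end arrays, T0 replicate 4 was not, and the differences from T0 were 0.30 ± 0.24 with nintedanib (adjusted p = 0.456), 0.52 ± 0.24 with B20 (adjusted p = 0.194) and 0.35 ± 0.26 with vehicle (adjusted p = 0.493), none of them called by limma. With array weights Ndufaf8 was called higher with B20 and with vehicle against T0. Of the 28041 genes tested, 3866 were called higher with B20 and 3052 with vehicle in that setting.

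Assembly factors outside the Nduf symbols were read for comparison. Of 12 listed, among them Foxred1, Ecsit and Timmdc1, 11 were tested and 0 were called in any comparison, with a median difference of nintedanib from T0 of -0.15 log2, close to the -0.13 of the Ndufaf genes. Of the other respiratory chain subunits tested, Sdha and Sdhb of complex II, Uqcrb of complex III and Cox5a of complex IV fell with nintedanib against T0, by 0.68 ± 0.16, 0.87 ± 0.25, 0.78 ± 0.20 and 0.89 ± 0.26 log2 (adjusted p = 0.0195, 0.0414, 0.0244 and 0.0435, limma), and Sdha with B20 against T0, by 0.71 ± 0.16 (adjusted p = 0.0198). None of the 14 ATP synthase genes tested was called. These calls are from the fit with the main scaling and all T0 arrays. Over all genes, nintedanib against T0 gave 3209 calls in that fit and 1044 without T0 replicates 1 and 2. Of all genes, 4.62% were called lower with nintedanib against T0 and 3.73% with B20. With vehicle against T0 the median was -0.62 over complex II and -0.39 over complex IV, with 0 called. With nintedanib these medians were -0.61 and -0.48. Slide and group cannot be told apart in these comparisons.

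Subunits and assembly factors were furthest apart on 2 arrays. The 2 classes also differ in brightness: group mean log2 levels were 5.17 to 5.65 for the subunits and 1.37 to 1.57 for the assembly factors. The part of signal level in the gap between them was not tested. The difference of subunits minus assembly factors in mean log2 deviation was -0.11, -0.21, -0.14 and -0.04 on the nintedanib arrays, 0.04, -0.01, 0.03 and -0.05 on the B20 arrays, -0.17, -0.08 and -0.01 on the vehicle arrays, and 0.54, 0.30, -0.03 and -0.05 on the T0 arrays. T0 replicates 1 and 2 were above all other arrays, and T0 replicates 3 and 4 were inside the range of the end groups. The 2 pairs lay on different slides, so slide cannot be told apart from this split. The subunit median minus the assembly factor median was -0.40 for nintedanib, -0.16 for B20 and -0.20 for vehicle against T0 with all T0 arrays. Without T0 replicates 1 and 2 these values were -0.19, 0.07 and -0.03, and without T0 replicates 3 and 4 they were -0.58, -0.48 and -0.57. T0 replicates 3 and 4, kept in the first case, had the lowest array weights of all arrays (0.36 and 0.31). They also had the highest and the lowest share of probes well above background (84.2% and 53.5%).

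Markers of other tissues were high on the same arrays. The brown fat markers deviated from their own means by 5.80, 3.16, -0.38 and 0.63 log2 on T0 replicates 1 to 4, and the 15 skeletal muscle markers by 4.54, 3.03, 0.88 and -0.88. B20 replicate 1 had muscle markers at 4.08 and brown fat markers at 1.29, and its gap between subunits and assembly factors was 0.04. All 12 adipocyte markers were lower in each end group than in T0, and 11 of them fell in each of the 3 comparisons. Of 10 endothelial markers, 4 fell with nintedanib, 7 with B20 and 3 with vehicle. Of all genes, 4.62% were called lower with nintedanib, 3.73% with B20 and 2.12% with vehicle. These calls too are from the fit with the main scaling and all T0 arrays. The part of these markers in the Nduf differences from T0 was not tested, and in these whole tumours fewer cells of a type and less RNA per cell cannot be told apart.

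**Figure D5:**
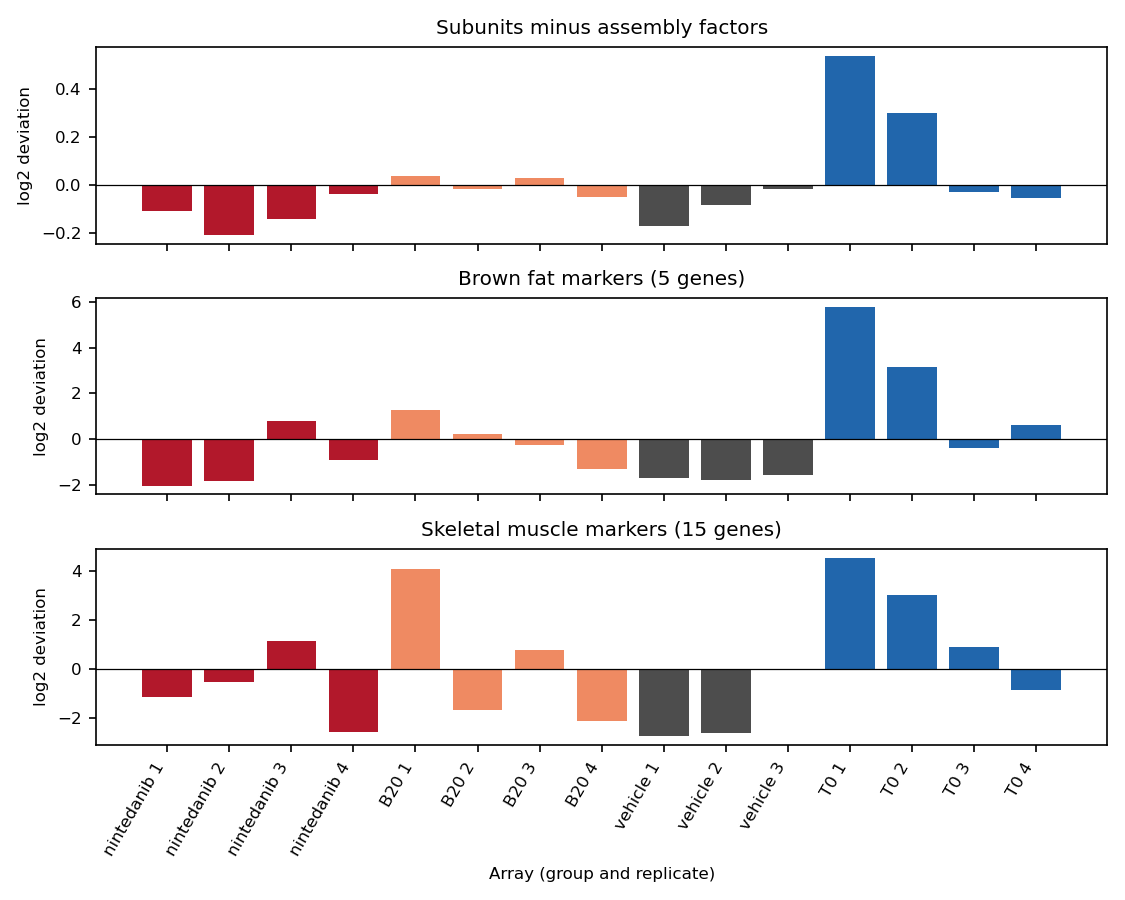
Bars give, for each of the 15 arrays, the log2 deviation of subunits minus that of assembly factors (top), the mean log2 deviation of 5 brown fat markers (middle) and of 15 skeletal muscle markers (bottom). The top and middle panels are highest on T0 replicates 1 (0.54 and 5.80) and 2 (0.30 and 3.16), and B20 replicate 1 reaches 4.08 in muscle markers and 1.29 in brown fat markers.

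Ndufa4 and Ndufa4l2 are related in sequence and were set apart from the subunits. Ndufa4, a small protein now placed in cytochrome c oxidase, had the lowest mean with nintedanib and the highest in T0. Ndufa4 had log2 levels of 5.57, 5.39, 6.26 and 5.85 on the nintedanib arrays, 6.52, 6.69, 5.85 and 6.38 on the B20 arrays, 5.7, 6.24 and 5.91 on the vehicle arrays, and 7.02, 6.25, 6.37 and 6.96 on the T0 arrays. Vehicle lay below T0 without overlap, though by less than 0.02 log2 between vehicle replicate 2 and T0 replicate 2, and nintedanib replicate 3 was just above the lowest T0 array. It fell by 0.88 ± 0.25 log2 with nintedanib against T0 (adjusted p = 0.0395, limma), a call held in 9 of 21 alternatives, and differed by -0.59 ± 0.25 from B20 (adjusted p = 0.524).

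Ndufa4l2 is induced by low oxygen through HIF-1 and is known to restrain complex I activity. Ndufa4l2 had log2 levels of -1.54, -1.06, -1.24 and -0.87 on the nintedanib arrays, -1.04, -1.16, -0.82 and -2.7 on the B20 arrays, -0.69, -1.69 and -0.97 on the vehicle arrays, and -0.22, -0.55, -1.22 and -1.05 on the T0 arrays. B20 replicate 4 was far below the rest, the other arrays overlapped between all groups, and no comparison was called. Ndufa4l2 differed from T0 by -0.42 ± 0.38 with nintedanib, -0.67 ± 0.38 with B20 and -0.36 ± 0.41 with vehicle. A list of 14 other hypoxia response genes was mixed: against T0, 7 were higher and 7 lower in the mean with nintedanib (median 0.19), 9 higher and 5 lower with B20 (0.43), and 5 higher and 9 lower with vehicle (-0.17). With nintedanib Car9 and Adm rose and Ndrg1 fell, with B20 Car9, Adm and Ankrd37 rose, and with vehicle Car9 alone rose (limma, adjusted p under 0.05). Of the 28041 genes tested, 1913 were called higher with nintedanib, 1621 with B20 and 785 with vehicle, and 4.62% were called lower with nintedanib. These calls are from the fit with the main scaling and all T0 arrays. Car9, a carbonic anhydrase and HIF-1 target, had the highest difference of the 14 in each of the 3 comparisons, at 2.68 ± 0.39 with nintedanib, 2.24 ± 0.39 with B20 and 2.38 ± 0.42 with vehicle.

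A second probe was on the array for 8 members, and not all pairs gave the same answer. For Ndufb4 the probes differed by less than 0.02 log2 in all 6 comparisons, and for Ndufa5 and Ndufaf4 both probes lay below 0 in the comparisons with T0. For Ndufb11 the dimmer probe stood at 0.27 for nintedanib against T0 where the brighter one stood at -0.32, and for Ndufv3 the pair stood at 0.53 and -0.18 for nintedanib against B20. Ndufb5 differed by 0.66 with its second probe and by 0.07 with its first for B20 against vehicle. For nintedanib against B20, Ndufb6 differed by 0.00 with its second probe and by -0.45 with its first. The second probe of Ndufaf5 was well above background on 1 array. RefSeq also lists near copies of Ndufb4 and pseudogenes of several members, and whether they bind to these probes was not tested.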

How the data were processed

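RNA of the 15 samples was labelled with Cy3 and read on 1-colour Agilent arrays, per the labels' protocols. The deposited intensity values are processed signals, already background-subtracted by Feature Extraction 10.7.3.1, per the file headers, which also name a grid on mm9. Other deposited columns used were the median and background signals and the flags of each spot, and the authors' table of log2 values, which matched normexp and quantile normalisation (median correlation 0.999989 over arrays). No label or header names the authors' own test.

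Processed signals were divided by each array's 75th percentile and logged (log2). Probes were kept where 3 or more of the 15 arrays had them well above background, the brightest probe stood for a gene, and symbols came from RefSeq by transcript accession. Means of 4 groups were fitted with limma 3.58.1 in R 4.3.3, two-sided, in 6 contrasts. Benjamini-Hochberg adjustment ran over 28041 genes and unnamed transcripts. The fit was checked on simulated data for nintedanib against vehicle. The simulated noise was independent between genes, so the check does not cover shifts that many genes share on an array. Differences are first group minus second, ± SE. The median SE over all genes was 0.269 for 4 against 4 arrays and 0.290 for 4 against 3, and the number of arrays limits the precision. Replicate numbers showed no common pairing of samples: of 21 pairs of same-numbered arrays, 5 correlated over 0.1 and 5 under -0.1, from -0.25 to 0.38. These correlations cannot exclude that some samples were paired. Normexp used median signals. The members, gene lists and tests were chosen with earlier results of these data known. Named subunits were the 3 lowest and 3 highest differences of each comparison, beside all core subunits, all Ndufaf genes, Ndufa4 and Ndufa4l2; other names were chosen after their values were seen. The values of 1 member are not reported here, though it is in the counts and medians.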

Additional observations from a re-analysis of the deposited data

Results flagged for a closer look

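Of 147 tests for a single array standing far from the others of its group of 4, 2 picked out a member, where chance picks out about 1 in 20. Ndufaf1 stood at a log2 level of 1.46 on nintedanib replicate 3, with the nearest nintedanib array at 1.26 and the lowest at 1.24. Ndufaf7 stood at 3.08 on T0 replicate 4, with the nearest T0 array at 2.65 and the lowest at 2.58.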

How the results depend on the processing

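The count of 0 members called in nintedanib vs vehicle, B20 vs vehicle and nintedanib vs B20 stayed 0 in every alternative run. For vehicle vs T0 (0 called) it was 1 with normexp and quantile normalisation, 1 with the authors' values, 3 with array weights (2 lower, 1 higher) and 1 without T0 replicates 3 and 4. For nintedanib vs T0 (6 called) it was 11 with normexp, 11 with the authors' values, 0 with median scaling, 19 with array weights, 1 with slide as a random block, 1 with the replicate block, 0 with the arrays of the 2 groups only, 0 without T0 replicates 1 and 2, and 1 to 12 with single arrays left out. For B20 vs T0 (1 called) it was 2 with normexp and with the authors' values, all lower, 2 with array weights (1 lower, 1 higher), 0 with quantile normalisation, median scaling, no filter on dim probes, slide as a random block, the replicate block, the arrays of the 2 groups only and without T0 replicates 1 and 2, and 0 to 1 with single arrays left out. The subunit median minus the assembly factor median was 0.047 with normexp and 0.046 with the authors' values for nintedanib vs B20 (-0.11 as reported), and -0.41 with array weights for vehicle vs T0 (-0.20), where single arrays left out gave -0.38 to -0.12. Without T0 replicates 1 and 2 it was -0.19 for nintedanib, 0.068 for B20 and -0.031 for vehicle against T0, and without T0 replicates 3 and 4 it was -0.58, -0.48 and -0.57. Over all genes, 3209 were called in nintedanib vs T0 (1044 to 7919 in the alternatives), 2667 in B20 vs T0 (457 to 6068) and 1380 in vehicle vs T0 (17 to 5274), each lowest with fewer arrays and highest with array weights. No direction of a called member reversed. The calls above were all lower except Ndufaf8, which was the member called higher with array weights. The cause of the changes was not tested. Leaving out pairs of T0 arrays or all of them, list levels and group separation under other scalings, and the subunit median minus the assembly factor median were chosen after seeing the data. Same-numbered arrays are not known to share more than a number, so calls lost under the replicate block are given without further reading.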
